A study of Macaca mulatta with 28 samples.

Results

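The ELMO and DOCK genes described here are 8 of the 16885 gene symbols measured in the rhesus macaque ventral tegmental area (VTA), namely ELMO1, ELMO2, DOCK1, DOCK2, DOCK4, DOCK5, DOCK10 and RAC1. They were chosen by name as members of 1 signaling route, and ELMO1 was the starting point because its level was lower in animals that had drunk alcohol. The difference of ELMO1 between drinkers and controls is therefore given as a description, with no test.

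ELMO proteins bind DOCK proteins, and together they form an exchange factor that loads the small GTPase RAC1 with GTP. RAC1 then drives actin assembly, by which phagocytes extend a cup around apoptotic cells and by which growing neurites and migrating glia extend their edges. In the brain this route is known from microglia, the resident phagocytes, and from the growth of axons and dendrites.

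RNA was sequenced from VTA punches, midbrain tissue from which dopamine neurons project to the nucleus accumbens, in 28 male wild-type macaques with 1 library each. The 17 drinkers had self-administered ethanol voluntarily over repeated periods of open access and were sampled after 30 days of forced abstinence, so the data show a state long after the last drink. The 11 controls were calorically yoked or housing controls, which the labels do not tell apart. By drinking category there were 1 Low, 2 Binge, 5 Heavy and 9 Very Heavy animals. Cohort 1 held 8 controls, 1 Low, 4 Heavy and 3 Very Heavy drinkers, and cohort 2 held 3 controls, 2 Binge, 1 Heavy and 6 Very Heavy drinkers. Low and Binge drinkers thus occur in 1 cohort each, and there category and cohort cannot be told apart. The cohort of each control was inferred from the dopamine recording (voltammetry) experiment it was used in. Animals are named by category and a number in accession order.

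Total estimated counts lay between 12303914 and 27338669 per animal, and mitochondrial transcripts took 36.4% to 60.6% of them. Dopamine neuron markers marked the punches unevenly, with a summed level of 47.0 to 1773 CPM (counts per 1000000 counts of the library) in drinkers and 47.9 to 1962 CPM in controls, and 7 of the 13 markers had counts in every animal. Oligodendrocyte and microglial markers were present in every animal, with 12 of 14 and 10 of 13 measured markers above 0 throughout. PTPRC, a marker of all white blood cells, was at 0 in at least 24 animals. The same held for VCAN of oligodendrocyte precursors, ALDH1L1 and SLC1A2 of astrocytes, and SYT1, RBFOX3 and SYN1 of neurons. An entry at 0 thus does not show that a cell type was absent. The libraries are from bulk tissue, so fewer cells of a type and less RNA per cell cannot be told apart in any value below.

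Each value is the count listed for 1 Ensembl transcript per gene symbol, and counts that were assigned to other transcripts of the gene are not in it. On this measure 4 of the 8 members, ELMO1, ELMO2, DOCK1 and DOCK4, had counts in every animal. The other 4 were listed at 0 in 24 or more of the 28 animals. Such entries were frequent in the table, since 2948 of the 16885 symbols (17.5%) had a count in 4 or fewer animals and 8329 (49.3%) had one in every animal.

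**Figure D1:**
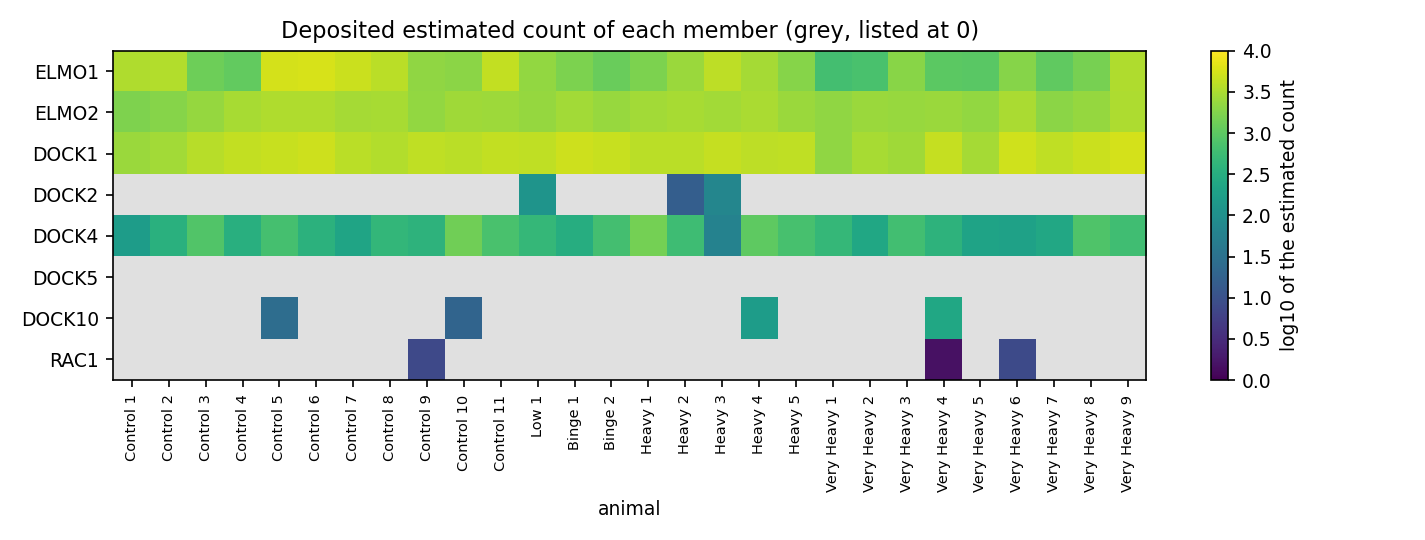
Estimated count of each of the 8 members (rows) in each of the 28 animals (columns, ordered by drinking category), colored by its log10, with grey for an entry listed at 0. ELMO1, ELMO2, DOCK1 and DOCK4 are filled across all animals, and DOCK2, DOCK5, DOCK10 and RAC1 are almost entirely grey.

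RAC1, the GTPase on which the route acts, was listed near 0. Its transcript (ENSMMUT00000029642.4; the RefSeq gene lies on chromosome 3, 39489221 to 39520111, minus strand, of Mmul_10) had 7.61 counts in Control 9, 7.78 in Very Heavy 6 and 1.53 in Very Heavy 4, and 0 in the other 25 animals. Most cells use RAC1, and RefSeq holds 2 transcripts of it, so the entry says nothing on the total RAC1 message. The related GTPases RAC2, of blood cells and microglia, and RAC3, of neurons, had counts in every animal, with medians of 31.5 and 850.0 counts.

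DOCK2, the exchange factor of white blood cells and microglia (ENSMMUT00000013085.4; chromosome 6, 167047668 to 167489347, plus strand), had a count in 3 animals. These were Low 1 with 119 counts, Heavy 3 with 67.6 and Heavy 2 with 15.8, all drinkers of cohort 1. DOCK10, which acts on CDC42 and RAC in lymphocytes and neurons (ENSMMUT00000025488.4; chromosome 12, 112202150 to 112485413, minus strand), had a count in 4 animals. Very Heavy 4 had 241 counts and Heavy 4 had 161, against 26.98 in Control 5 and 19.6 in Control 10. DOCK5, a RAC exchange factor of osteoclasts and mast cells (ENSMMUT00000011240.4; chromosome 8, 25456779 to 25691204, plus strand), was listed at 0 in every animal.

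These 4 entries give no group difference. DOCK2 and DOCK10 passed the filter of at least 5 counts in at least 3 animals only through the animals named, DOCK5 and RAC1 did not pass, and no fold change is given for any of them. DESeq2's Wald test called DOCK10 between the cohorts (adjusted p = 1.16e-07), although 2 animals of each cohort had a count, while edgeR's quasi-likelihood test did not call it. Animals with a count were few, and which isoform carries the RNA in the others was not tested.

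ELMO1 encodes the ELMO protein first linked to the engulfment of apoptotic cells. Its transcript (ENSMMUT00000032507.4; chromosome 3, 77716104 to 78289661, plus strand; 13 RefSeq transcripts) had 647 to 5755 counts per animal, with a median of 1998 in the 28 animals, so counting error was small beside the differences between animals. In controls the lowest level was 47.7 CPM, the median 182 CPM and the highest 269 CPM. Drinkers ranged from 37.4 CPM through a median of 68.3 CPM to 181 CPM. All 17 drinkers lay below the control median, and 6 controls lay above the highest drinker, Heavy 3, the nearest of them at 182.2 CPM against 180.6 CPM. The groups overlapped at the lower end, where 3 drinkers fell below the lowest control.

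The controls did not form 1 level. In cohort 1, 6 controls had 182, 199, 214, 240, 246 and 269 CPM, and the other two, Control 3 and Control 4, had 52.3 and 47.7 CPM, within the range of the drinkers. Controls of cohort 2 had 89.4, 101.5 and 179 CPM. Control 11, with the highest of these, lay just under the lowest of the 6 high controls, Control 8.

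Across drinking categories the order of the medians was Control, Low, Heavy, Binge and Very Heavy. The single Low drinker had 120 CPM. Heavy drinkers had 66.3, 98.9, 124 and 181 CPM in cohort 1 and 85.1 CPM in cohort 2. The 2 Binge drinkers had 64.7 and 55.7 CPM. Very Heavy drinkers had 37.4, 40.3 and 94.7 CPM in cohort 1, and 41.6 to 132 CPM in cohort 2 with a median of 62.4 CPM. The 3 lowest levels of the whole series were those of Very Heavy drinkers, yet Very Heavy and Heavy animals overlapped, and both Binge levels lay within the Very Heavy range. The Low animal lay within the Heavy range and within that of the controls, while both Binge animals lay below every Heavy animal, the nearest at 64.7 CPM against 66.3 CPM.

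**Figure D2:**
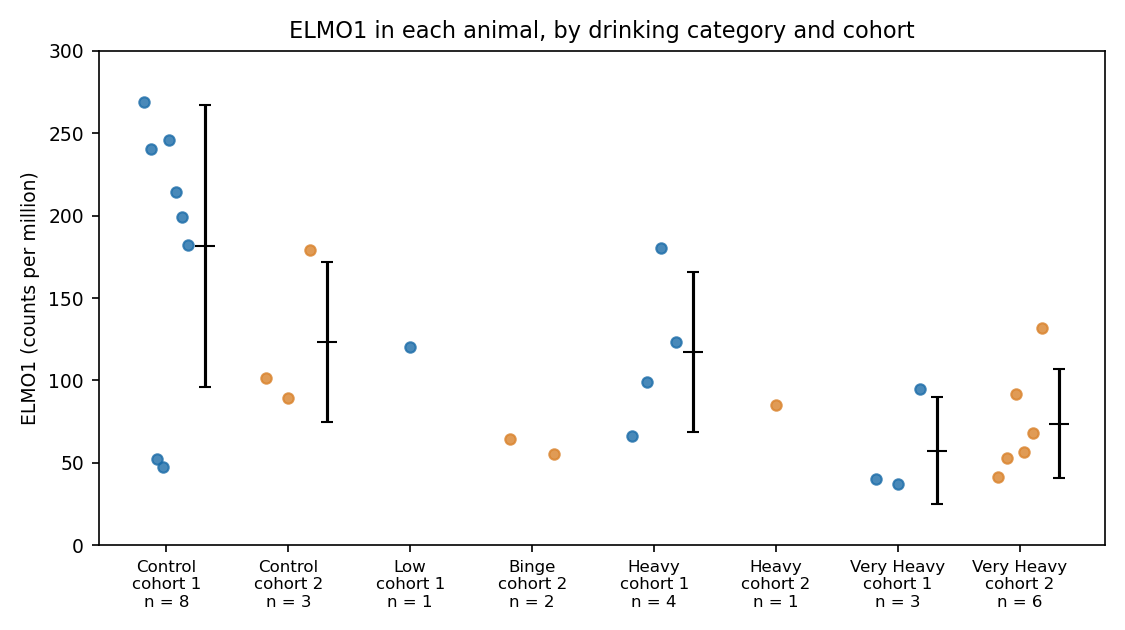
ELMO1 in CPM in each animal (points), by drinking category and cohort (blue, cohort 1; orange, cohort 2), with the mean and SD (black bars) where a group has at least 3 animals. In cohort 1, 6 of 8 controls lie above every drinker, and 2 controls lie among the lowest drinkers.

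The mean ELMO1 level was 82.9 ± 38.9 CPM (SD, n = 17) in drinkers and 165 ± 79.5 CPM (SD, n = 11) in controls, a ratio of 0.501. The fitted log2 fold change was −0.996 (SE 0.263), with no term for cohort. Of the 11 controls 8 were of cohort 1, and of the 17 drinkers 8. With cohort as a covariate the log2 fold change was −0.87 (SE 0.266). Since ELMO1 was chosen on this difference, its standard errors are not read as a test. Within cohort 1 the means were 95.2 ± 47.7 CPM (SD, n = 8) and 181 ± 85.5 CPM (SD, n = 8), with a log2 fold change of −0.92 (SE 0.386). Within cohort 2 they were 72.0 ± 27.3 CPM (SD, n = 9) and 123.4 ± 48.7 CPM (SD, n = 3), with a log2 fold change of −0.77 (SE 0.299). Drinkers were thus lower on average in both cohorts. The value of cohort 2 rests on few controls, and it was −0.40 without Control 11, −0.90 without Control 9 and −0.96 without Control 10.

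Among the 7637 transcripts with at least 10 counts in every animal, 1 had a log2 fold change larger in size than ELMO1 in all 28 animals and none was lower. In the separate cohorts 37 and 49 of these transcripts had larger differences. ELMO1 was chosen on this difference, so its place is no separate evidence, and edgeR called no transcript of the whole table at the adjusted threshold.

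Whether the difference itself depended on cohort was tested with the interaction of cohort and drinking, a term on which ELMO1 was not chosen. For ELMO1 the interaction was 0.15 on the log2 scale (SE 0.569, edgeR adjusted p = 1.0), and its standard error leaves room for differences between the cohorts as large as the effect. ELMO1 was lower in cohort 2 than in cohort 1 by a log2 fold change of −0.45 (SE 0.268, edgeR adjusted p = 0.623) with drinking in the model, which did not pass the threshold.

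Very Heavy drinkers were compared with Heavy drinkers, with cohort in the model, to ask whether levels followed the amount drunk. Very Heavy animals had a mean of 68.4 ± 31.8 CPM (SD, n = 9) ELMO1 and Heavy animals 111 ± 44.2 CPM (SD, n = 5). The log2 fold change was −0.60 (SE 0.415, edgeR adjusted p = 0.903). In this comparison edgeR called 0 of 13769 transcripts, 863 (6.27%) had an unadjusted p under 0.05, and DESeq2 called 77, none of them a member. The difference of ELMO1 between the heavier categories was within the spread of the animals. Without single Heavy animals it was −0.74 (without Heavy 1) to −0.39 (without Heavy 3, the highest drinker). It was −0.70 without the cohort covariate and −0.79 in drinkers alone, a fit chosen after seeing the data.

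ELMO2 encodes a broadly expressed relative of ELMO1, which binds the same DOCK proteins. Its transcript (ENSMMUT00000021115.4; chromosome 10, 81558346 to 81606454, minus strand) ranged from 104 CPM through a median of 119 CPM to 152 CPM in drinkers, and from 90.7 CPM through 126 CPM to 146 CPM in controls. The ranges overlapped over most of their length. Drinkers and controls differed by a log2 fold change of −0.02 (SE 0.068, edgeR adjusted p = 1.0). In cohort 1 it was −0.03 (SE 0.082) and in cohort 2 it was 0.10 (SE 0.110). Control 3, which was low in ELMO1, was also the lowest of all animals in ELMO2, whereas Control 4 had 131 CPM, above the control median.

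DOCK1, also called DOCK180, is the classical partner of ELMO in engulfment and the exchange factor that acts on RAC1. Its transcript (ENSMMUT00000026078.4; chromosome 9, 127338308 to 127888666, plus strand) ranged from 133 CPM through 187 CPM to 255 CPM in drinkers and from 148 CPM through 186 CPM to 203 CPM in controls. All controls fell inside the range of the drinkers, which was wider at both ends, with 2 drinkers below and 7 above every control. The log2 fold change between drinkers and controls was 0.06 (SE 0.089, edgeR adjusted p = 1.0).

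The DOCK1 values of drinkers parted by cohort. Drinkers of cohort 1 had a mean of 166 ± 30.6 CPM (SD, n = 8) against 180 ± 19.99 CPM (SD, n = 8) in their controls, and 6 of the 8 lay below the control median. Drinkers of cohort 2 had 207 ± 28.5 CPM (SD, n = 9) against 179 ± 13.6 CPM (SD, n = 3), and 6 of the 9 lay above every control of the cohort. The log2 fold changes were −0.12 (SE 0.106) and 0.21 (SE 0.122), and with a score of oligodendrocyte markers as a covariate, chosen after seeing the data, −0.05 (SE 0.081) and 0.17 (SE 0.113). Their difference, the interaction, was 0.33 (SE 0.169) with an edgeR adjusted p of 0.552 and did not pass the threshold. Among Very Heavy drinkers the means were 141 ± 12.6 CPM (SD, n = 3) in cohort 1 and 211 ± 34.1 CPM (SD, n = 6) in cohort 2, and the 3 animals of cohort 1 lay below all 6 of cohort 2, a split noticed in the values and not tested by itself. Neuron markers had medians of the opposite sign in the same comparisons, with a log2 fold change over the markers tested of 0.51 in cohort 1 and −0.46 in cohort 2. Their median interaction was −0.91, with 4 of 8 markers under an unadjusted p of 0.05 and 0 called by edgeR, and their part in the DOCK1 values was not tested.

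DOCK4 is an exchange factor for RAP and RAC that also binds ELMO and shapes dendrites. Its transcript (ENSMMUT00000004108.4; chromosome 3, 138000978 to 138475001, minus strand) ranged from 2.67 CPM through 23.3 CPM to 59.8 CPM in drinkers and from 9.02 CPM through 21.0 CPM to 60.2 CPM in controls. Heavy 3, the drinker with the highest ELMO1, had the lowest DOCK4, and Heavy 1 and Control 10 had the highest. The log2 fold change between drinkers and controls was −0.01 (SE 0.325, edgeR adjusted p = 1.0), with an error that spans changes of either sign.

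By cohort DOCK4 pointed in opposite directions. Drinkers of cohort 1 had 28.1 ± 17.7 CPM (SD, n = 8) against 19.6 ± 8.43 CPM (SD, n = 8) in controls, and drinkers of cohort 2 had 20.2 ± 9.80 CPM (SD, n = 9) against 35.7 ± 21.9 CPM (SD, n = 3). The log2 fold changes were 0.52 (SE 0.426) and −0.81 (SE 0.425). The interaction was −1.33 (SE 0.658, edgeR adjusted p = 0.530). Control 10 carried much of it, since without that animal the difference in cohort 2 was −0.21 and the interaction −0.73. With the oligodendrocyte score as a covariate, an alternative chosen after seeing the data, the difference in cohort 2 was −0.48 (SE 0.388). The medians of the neuron markers given above had the same signs as DOCK4 in each cohort and in the interaction, and dopamine neuron markers had a median log2 fold change of −0.29 in cohort 1 and −0.65 in cohort 2. Their part in the DOCK4 values was not tested. DOCK4 was also lower in Very Heavy than in Heavy drinkers by a log2 fold change of −0.76 (SE 0.496, edgeR adjusted p = 0.882), which did not pass the threshold. This difference was −0.41 without Heavy 1 and −1.04 without Heavy 3.

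**Figure D3:**
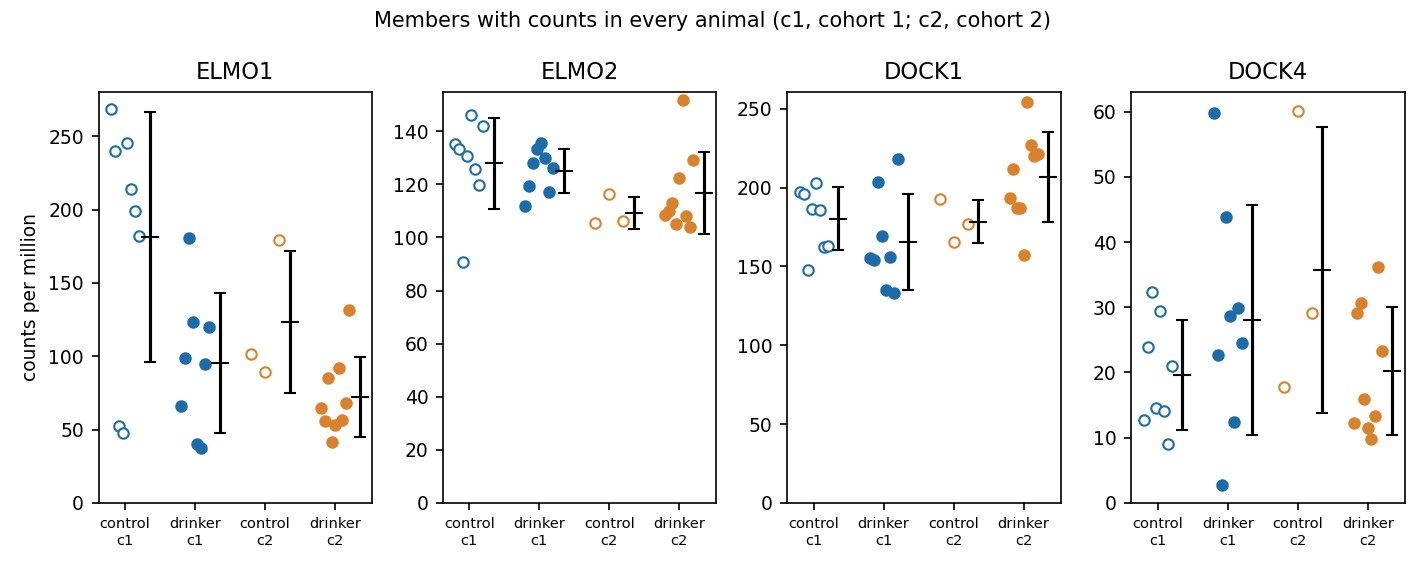
CPM of the 4 members with counts in every animal, in controls (open) and drinkers (filled) of cohort 1 (c1, blue) and cohort 2 (c2, orange), with mean and SD (black bars). ELMO1 is lower on average in the drinkers of both cohorts, ELMO2 is near level, and the means of DOCK1 and DOCK4 shift in opposite directions in the 2 cohorts.

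Of the 3 measured members on which the choice did not rest, 0 passed an adjusted p of 0.05 between drinkers and controls, where 0% of the 13769 transcripts did. By unadjusted p under 0.05 edgeR found 629 transcripts (4.57%), and none of the 3 members was among them. DESeq2 called 11 transcripts and limma-voom 0. In cohort 1 alone 0 of the 3 passed against 5 of 13086 transcripts (0.0382%), and 1330 (10.2%) had an unadjusted p under 0.05, while DESeq2 called 236. For cohort 2 the figures were 0 of the 3 against 0% of 12785 transcripts, with 481 (3.76%) under an unadjusted 0.05 and 22 calls by DESeq2. Between cohorts, ELMO1, ELMO2, DOCK1 and DOCK4 gave 0 calls against 6 transcripts (0.0436%), with 9.8% under an unadjusted 0.05, among them ELMO2 (unadjusted p = 0.039) and DOCK1 (unadjusted p = 0.0207), and DESeq2 called 121. The interaction was called for 2 transcripts (0.0145%), with 9.62% under an unadjusted 0.05, and for none of the 4 members, and DESeq2 called 157 transcripts, also none of the 4.

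Between cohorts, with drinking in the model, ELMO2 was lower in cohort 2 by a log2 fold change of −0.14 (SE 0.066, edgeR adjusted p = 0.465) and DOCK1 higher by 0.21 (SE 0.085, edgeR adjusted p = 0.367). Neither passed the threshold over the whole table. DOCK4 differed by 0.01 (SE 0.327).

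**Figure D4:**
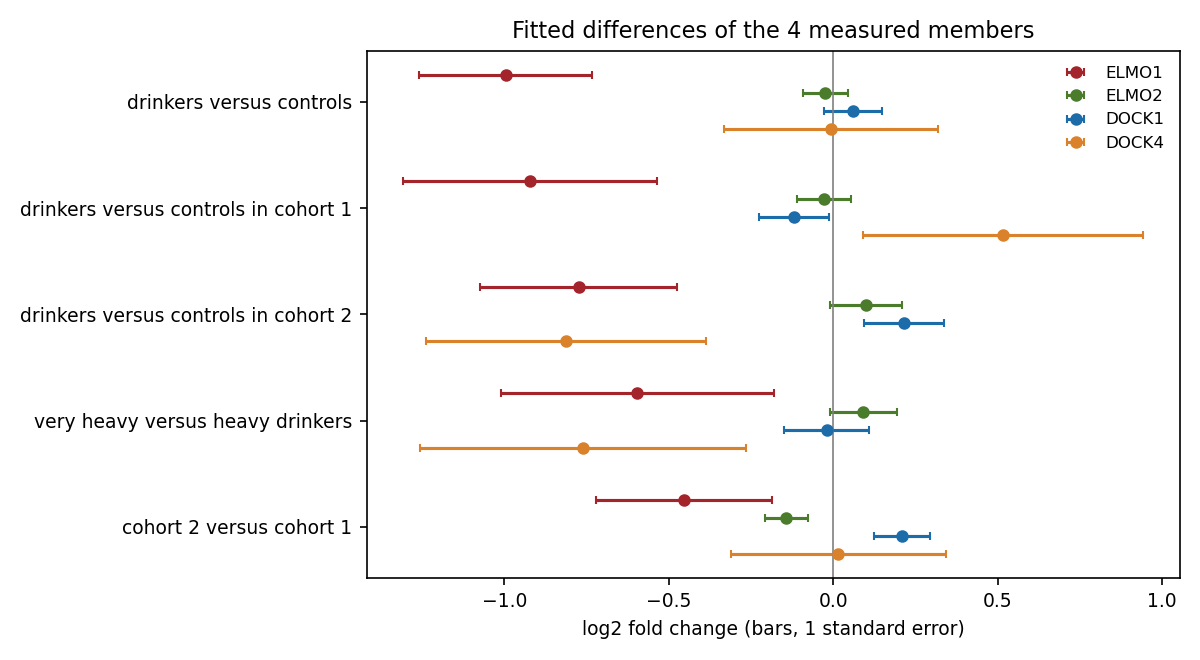
Fitted log2 fold change (points) with 1 standard error (bars) of the 4 members in 5 comparisons, where a negative value is lower in the first-named group. ELMO1 lies between −0.996 and −0.45 in all 5, and DOCK4 lies at 0.52 in cohort 1 and −0.81 in cohort 2.

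The members differed widely in how much they varied between animals of the same group and cohort. The SD of the log2 level within drinking group and cohort was 0.77 for ELMO1 and 0.94 for DOCK4, against 0.17 for ELMO2 and 0.20 for DOCK1, with a median of 0.31 over the 7637 transcripts with at least 10 counts in every animal. Of the 1000 transcripts nearest to it in level, 99.4% varied less than ELMO1, and 98.7% of those nearest to DOCK4 varied less than DOCK4. ELMO2 and DOCK1 were ordinary on this measure, with 29.7% and 51.1%. The large spread of ELMO1 is present within controls of 1 cohort, where levels ran from 47.7 to 269 CPM.

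To describe what ELMO1 varied with, its variance stabilized counts were correlated across the 28 animals with other values. These were 3 members and scores of 7 marker lists, 10 relations in all. Drinking and cohort were not in these correlations, so r and permutation p include the difference on which ELMO1 was chosen. The oligodendrocyte score, the mean standardized level of the 12 markers with counts in every animal, had the closest relation to ELMO1 (r = 0.55, permutation p = 0.00222, adjusted p = 0.0222). Spearman's rho was 0.50 (permutation p = 0.00703, adjusted p = 0.0703), which missed the threshold. The relation had r = 0.56 without the 2 animals farthest from the median score, 0.43 in drinkers, 0.66 in controls and 0.54 within drinking group and cohort. By cohort r was 0.69 in cohort 1 (n = 16) and 0.05 in cohort 2 (n = 12), and this difference between cohorts was not tested.

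Microglial markers, which mark the phagocytes of the brain, had a weak relation to ELMO1 that did not pass (r = 0.16, permutation p = 0.440, adjusted p = 0.555; rho = 0.13, permutation p = 0.513), with 0.22 in cohort 1 and 0.06 in cohort 2. Their summed level was 279 to 900 CPM with a median of 668 CPM in drinkers, and 505 to 791 CPM with a median of 683 CPM in controls. Among the 12 microglial markers tested between drinkers and controls, 0 passed and the median log2 fold change was −0.09, against 0.00 over all transcripts tested. The remaining scores, for precursors, astrocytes, neurons, dopamine neurons and endothelial cells, had r between −0.25 and 0.21 with ELMO1 over all animals, and none passed the adjusted threshold. Subsets of animals gave other values. The neuron score had r = −0.60 in cohort 1, 0.16 in cohort 2 and −0.42 within drinking group and cohort. For the endothelial score r was 0.62 in controls, 0.02 in drinkers and 0.36 within drinking group and cohort. Dopamine neuron and astrocyte scores had −0.38 and 0.11 within drinking group and cohort, and the precursor score 0.27.

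Oligodendrocyte markers had a summed level in drinkers of 13368 to 22263 CPM and a median of 17633 CPM, against 13525 to 23257 CPM with a median of 19756 CPM in controls. Their median log2 fold change was −0.13 in all animals, −0.19 in cohort 1 and 0.12 in cohort 2, and 0 of 14 passed the test in any of these. With the oligodendrocyte score as a covariate, an alternative chosen after seeing the data, the log2 fold change of ELMO1 was −0.81 (SE 0.227) in all animals, −0.63 (SE 0.307) in cohort 1 and −0.81 (SE 0.308) in cohort 2. Control 3 had the lowest score of all animals (−1.12) and low ELMO1, and Control 4 had a score of 0.35 and low ELMO1.

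**Figure D5:**
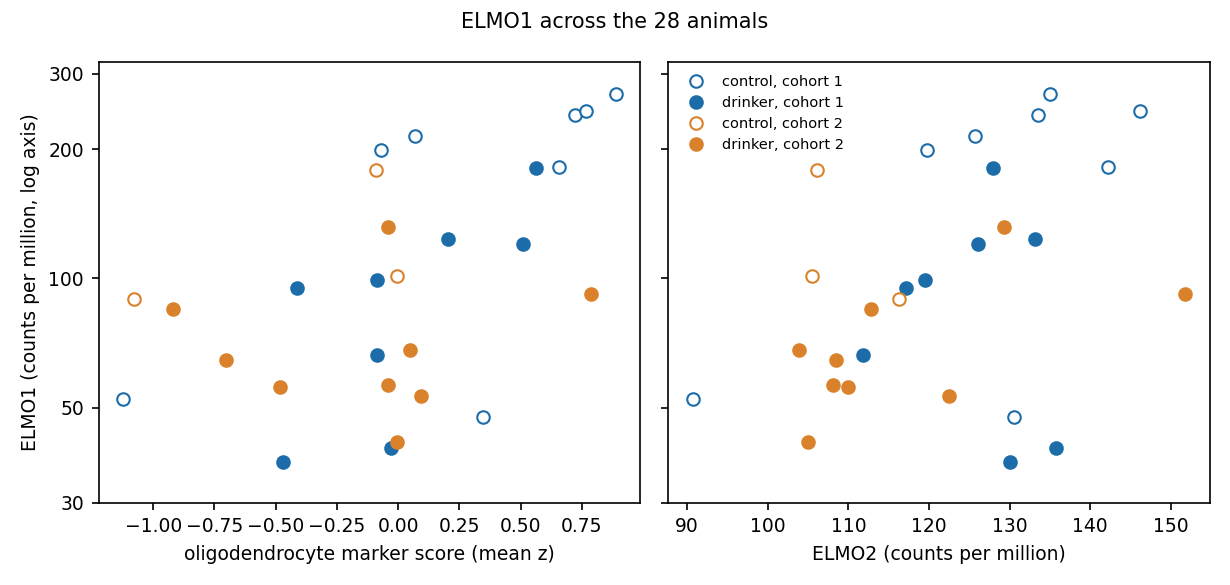
ELMO1 (CPM, log axis) in each of the 28 animals against the oligodendrocyte marker score (left, mean standardized level) and against ELMO2 (right, CPM), with controls open, drinkers filled, cohort 1 blue and cohort 2 orange. ELMO1 and the score have r = 0.69 among animals of cohort 1 and 0.05 among those of cohort 2.

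No relation of ELMO1 to another member passed the adjusted threshold. ELMO2 had r = 0.43 with ELMO1 (permutation p = 0.0252, adjusted p = 0.126; rho = 0.37, permutation p = 0.0515), 0.44 without the 2 farthest animals, and 0.39 and 0.20 within cohorts 1 and 2. For DOCK1 r was 0.20 (permutation p = 0.299, adjusted p = 0.499; rho = 0.27, permutation p = 0.174), with 0.59 in cohort 1 and 0.01 in cohort 2. DOCK4 had r = −0.14 (permutation p = 0.473, adjusted p = 0.555; rho = −0.07, permutation p = 0.733). In order of likeness to ELMO1 among the 8328 other transcripts with counts in every animal, ELMO2 was at rank 177, DOCK1 at 1452 and DOCK4 at 6093. That ranking pools groups and cohorts whose ELMO1 means differ. Within drinking group and cohort r with ELMO1 was 0.50 for DOCK1, 0.42 for ELMO2 and −0.17 for DOCK4, so there DOCK1 had the higher r of the first pair.

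The 5 transcripts most like ELMO1 were DPH5, of diphthamide synthesis (r = 0.61), TAF1C, a subunit of the polymerase I factor SL1 (r = 0.60), TRAPPC10, of vesicle tethering (r = 0.60), BCL10, an adaptor of NF-kappaB signaling (r = 0.60), and MIDEAS, of a histone deacetylase complex (r = 0.60). Lowest were IMMT, of mitochondrial cristae (r = −0.65), ILF2 (r = −0.64), BEX1 (r = −0.62), MORN2 (r = −0.62) and SNAP47 (r = −0.60). They are the extremes of a ranking over 28 animals, and no test is attached to them.

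The other members were related to the same scores in a second set of 32 relations, which were chosen after seeing the data and also held total counts and the mitochondrial share. ELMO2 rose with the oligodendrocyte score (r = 0.70, adjusted permutation p = 0.00032; rho = 0.67, adjusted permutation p = 0.00608). The relation of ELMO2 stood at r = 0.66 without the 2 farthest animals, 0.80 in cohort 1, 0.45 in cohort 2, 0.55 in drinkers and 0.82 in controls, so it had 1 direction in every subset. DOCK1 rose with the endothelial score (r = 0.59, adjusted permutation p = 0.0179; rho = 0.52, adjusted permutation p = 0.0412), with 0.51 in cohort 1 and 0.71 in cohort 2, and with 0.39 without the 2 farthest animals, so it rested in part on them.

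DOCK1 fell with the neuron score (r = −0.57, adjusted permutation p = 0.0202; rho = −0.49, adjusted permutation p = 0.0516), with −0.54 and −0.42 in cohorts 1 and 2 and −0.53 without the 2 farthest animals. It rose with the oligodendrocyte precursor score by r alone (r = 0.52, adjusted permutation p = 0.0366; rho = 0.42, adjusted permutation p = 0.135), with 0.56 and 0.22 in the cohorts and 0.53 without the 2 farthest animals. DOCK4 passed by rank alone, with the dopamine neuron score (rho = 0.53, adjusted permutation p = 0.0412; r = 0.46, adjusted permutation p = 0.0765) and, in the opposite direction, with the endothelial score (rho = −0.55, adjusted permutation p = 0.0412; r = −0.49, adjusted permutation p = 0.057). Within cohorts 1 and 2 these had r = 0.48 and 0.44, and −0.53 and −0.44. Without the 2 farthest animals they had r = 0.43 and −0.44. Scores and members come from the same libraries, and the scores are not cell counts.

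Neither total counts nor the mitochondrial share passed with any of the 4 members. ELMO1 had r = 0.14 with total counts (adjusted permutation p = 0.598; rho = 0.33, adjusted permutation p = 0.242) and r = 0.29 with the mitochondrial share (adjusted permutation p = 0.266; rho = 0.30, adjusted permutation p = 0.271). Within cohorts 1 and 2 the former had r = 0.14 and 0.27 and the latter 0.44 and −0.09, and without the 2 farthest animals they had r = 0.28 and 0.18. By group, the relation to total counts had r = 0.67 in the 17 drinkers and −0.18 in the 11 controls, and that to the mitochondrial share had r = 0.48 in drinkers and 0.33 in controls. DOCK1 had r = 0.64 with total counts and 0.70 with the mitochondrial share in cohort 2, against −0.10 and 0.14 in cohort 1. The part of library size and mitochondrial share in the ELMO1 and DOCK1 levels was not tested.

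The rest of the route was followed through 6 lists of genes chosen by function, and 0 genes passed between drinkers and controls in any of them. Of the relatives of the members 8 of 10 were tested, with a median log2 fold change of 0.14. ELMOD3, an ELMO-domain protein that acts on ARL GTPases, had 18.8 ± 3.30 CPM (SD, n = 17) in drinkers and 15.4 ± 3.99 CPM (SD, n = 11) in controls. The difference was 0.29 on the log2 scale (SE 0.120, edgeR adjusted p = 1.0). DOCK9, a CDC42 exchange factor, had a log2 fold change of 0.27 (SE 0.347). DOCK3 was listed at 0 in every animal and DOCK11 in all but 1, so the near absence of single entries was not particular to the members.

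Upstream of ELMO, receptors that recognize dying cells and the proteins that bridge them gave 19 tested genes, with a median of −0.05. ADGRB3, an adhesion receptor of the brain-specific angiogenesis inhibitor family whose members bind ELMO, had 57.1 ± 7.07 CPM (SD, n = 17) in drinkers and 48.6 ± 5.91 CPM (SD, n = 11) in controls. On the log2 scale drinkers were higher by 0.23 (SE 0.070, edgeR adjusted p = 0.518), and the difference was 0.21 in cohort 1 and 0.18 in cohort 2. TIMD4, a receptor for phosphatidylserine, had −0.39 (SE 0.259). ADGRB3 alone of the 19 had an unadjusted p under 0.05, against 4.57% of all transcripts.

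The adaptors and the RhoG arm that recruit ELMO to the membrane gave 17 tested genes, with a median of 0.02. Under an unadjusted p of 0.05 and lower in drinkers were GIT1, RHOG and CYTH3, 3 of the 17 genes, against 4.57% of all transcripts in either direction. NCK1 is among the 17 genes tested, but it passed the filter only through 3 drinkers, the animals in which it had counts. It is not among the genes named as lower and gets no fold. GIT1, a scaffold of focal adhesions, had 80.5 ± 14.1 CPM (SD, n = 17) in drinkers and 92.5 ± 11.5 CPM (SD, n = 11) in controls, which gives a log2 difference of −0.20 (SE 0.088, edgeR adjusted p = 1.0).

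In cohort 1, 4 genes of this list were lower in drinkers at an unadjusted p under 0.05, and all but GIT1 were singled out after their values were seen. RHOG, the GTPase that binds ELMO directly, had a log2 fold change of −0.63 (SE 0.196, edgeR adjusted p = 0.241) in that cohort. CYTH2 and CYTH3, exchange factors for ARF GTPases, had −0.68 (SE 0.188) and −0.40 (SE 0.106), with edgeR adjusted p of 0.197 and 0.181, and GIT1 had −0.35 (SE 0.120). They are 4 of the 16 genes tested there, and 0 of the 16 were higher at such a p. The median log2 fold change over the 16 was 0.03. In that cohort 10.2% of all transcripts had such a p in either direction, and none of the 4 passed adjustment. Of the RAC family and actin genes described below, 3 of 19 were higher and 0 lower at such a p there. For RHOG, CYTH2, CYTH3 and GIT1 the interaction with cohort was 0.65, 0.93, 0.40 and 0.41, with edgeR adjusted p of 0.508, 0.279, 0.340 and 0.474.

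Downstream, the RAC family and the actin machinery it drives gave 20 tested genes, with a median of 0.01. BRK1, a small subunit of the WAVE complex, had 122 ± 11.1 CPM (SD, n = 17) in drinkers and 112 ± 8.30 CPM (SD, n = 11) in controls, which gives a log2 difference of 0.12 (SE 0.050, edgeR adjusted p = 1.0). ARPC3, a subunit of the Arp2/3 complex that nucleates actin branches, had 0.12 (SE 0.073). RAC exchange factors outside the DOCK family gave 11 tested genes, with a median of −0.02 and 0 under an unadjusted p of 0.05. VAV2 was the nearest, with −0.49 (SE 0.251), and PREX1 had counts in 11 animals.

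Proteins that switch RAC off gave 12 tested genes, with a median of −0.05. ARHGDIA, which can hold RAC in the cytosol, had 185 ± 24.7 CPM (SD, n = 17) in drinkers and 221 ± 36.1 CPM (SD, n = 11) in controls. The log2 difference was −0.26 (SE 0.081, edgeR adjusted p = 0.518). It was −0.38 in cohort 1 and −0.05 in cohort 2, and the interaction of 0.33 had an edgeR adjusted p of 0.553. SRGAP2 had counts in 12 animals and gets no fold. Over all 13769 transcripts the median log2 fold change was 0.00.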

How the data were processed

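RNA-seq of VTA punches from 28 macaques (17 drinkers, 11 controls, 1 library each) was analysed. The authors trimmed reads with Trim Galore 0.6.7 and quantified them with Salmon 1.9.0 against Mmul_10, and the deposited estimated counts carry no normalization. The submitters' processing notes also name DESeq2 1.36.0, and the Ensembl annotation release is not given in the sources used here. The 16886 entries hold 1 transcript per symbol, and 1 entry without a symbol (1.16e-05% of counts) was left out. Groups came from the sample labels. Cohorts came from the study's source data, where drinkers are listed by cohort. The cohort of each control was inferred from the voltammetry experiment it was used in. Replicates are separate animals, and the most alike of 378 pairs of libraries had 1.77% identical counts.

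Counts were rounded, and a transcript entered the test where 3 or more animals had 5 or more counts, with edgeR 4.0.16 (TMM, quasi-likelihood, Benjamini-Hochberg at 0.05, R 4.3.3). A standard error is the size of the log2 fold change divided by the square root of F. CPM used TMM library sizes. Variance stabilized counts came from DESeq2 1.42.0. Correlations used two-sided permutation tests with 100000 resamples (scipy 1.17.1, numpy 2.4.6, pandas 2.3.3, Python 3.11.15) and Benjamini-Hochberg adjustment within each set. Plots were drawn with matplotlib 3.10.9. The alternatives were limma 3.58.1 (voom), the Wald test and the size factors of DESeq2, removal of a trend on GC content, other filters, covariates, subsets of drinkers and leaving out single animals. The scripts were tested on simulated data. Gene positions are those of RefSeq on Mmul_10.

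The members and gene lists were chosen with earlier results of these data known. Genes named beyond the members are the 5 most and the 5 least correlated with ELMO1 and, per functional list, the 2 with the lowest unadjusted p between drinkers and controls and any with an adjusted p under 0.05, plus those said to be singled out later. RAC2, RAC3, DOCK3, DOCK11, PTPRC, the other markers said to be at 0 and the unadjusted calls RHOG and CYTH3 were named after their values were seen. MAG, OLIG1, C1QA, CRKL, HBA1, HBA2 and HBB were not analysed here. Blood markers were at 0 or near it (at most 0.238 CPM summed). No protein or promoter sequence was used.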

Additional observations from a re-analysis of the deposited data

How the results depend on the processing

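The number of transcripts called depended most on the test. DESeq2's Wald test called 11 transcripts between drinkers and controls, 236 in cohort 1, 22 in cohort 2, 121 between cohorts, 157 for the interaction and 77 between Very Heavy and Heavy drinkers, against 0, 5, 0, 6, 2 and 0 by edgeR, and the cause was not tested. Removal of the GC trend and the oligodendrocyte covariate each left 2 calls in cohort 1, and DESeq2 size factors left 3 between cohorts. Leaving out each of the 3 controls of cohort 2 in turn gave 0 to 1 calls in cohort 2 (1 without Control 11), 0 to 6 between cohorts (0 without Control 11) and 0 to 4 for the interaction (4 without Control 11, 0 without Control 9 or Control 10). No called relation remained among the 10 by Spearman's rho, where that of ELMO1 with oligodendrocyte markers was 0.50 (adjusted permutation p = 0.0703). ELMO1 kept its direction between drinkers and controls in every alternative (−1.003 to −0.81) and without any single animal (−1.11 to −0.90). Since ELMO1 was chosen on this difference, its steady sign is no separate evidence. Values near 0 changed sign. ELMO2 was 0.0142 with cohort as a covariate, 0.0175 with the oligodendrocyte covariate and 0.0485 with it in cohort 1, and −0.0596 to 0.00309 without single animals. DOCK1 was −0.00457 with cohort as a covariate, and between Very Heavy and Heavy drinkers 0.11 without the cohort covariate and −0.0688 to 0.0512 without single Heavy animals. DOCK4 was 0.00316 by DESeq2, 0.00296 by its size factors, 0.0220 with Heavy and Very Heavy drinkers only, and −0.15 to 0.23 without single animals. Between cohorts DOCK4 was −0.000395 by DESeq2, −0.000580 by its size factors and −0.26 to 0.0526 without single controls of cohort 2. The interaction of ELMO1 was −0.0451 to 0.52 without single controls of cohort 2. ELMO2, DOCK1 and DOCK4 were not called in any of these fits. The limits are the 3 controls of cohort 2, the single transcript listed per gene and the entries listed at 0. No paired analysis was possible because the animals' numbers are only names in accession order and the labels do not give which control was yoked to which drinker.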

Other observations

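In animals of cohort 1, DOCK1 and the oligodendrocyte score had r = 0.74, and in cohort 2 r = 0.53. In all 28 animals r was 0.42 (adjusted permutation p = 0.111; rho = 0.41, adjusted permutation p = 0.135), which did not pass, with 0.33 without the 2 farthest animals and 0.63 within drinking group and cohort. Between cohort 2 and cohort 1 the log2 fold change was 0.21 for DOCK1 and had a median of −0.18 over the 14 markers, and edgeR called none of them. ELMO1 with the precursor score had r = 0.68 in cohort 1 and −0.40 in cohort 2, and r = 0.11 overall (permutation p = 0.571, adjusted p = 0.571; rho = 0.17, permutation p = 0.389) and 0.20 without the 2 farthest animals. The difference between cohorts in these relations was not tested.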
